A study of Mus musculus with 4 samples.

Results

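Tcf7, Lef1, Tox, Eomes, Tbx21, Id2, Id3, Foxp3 and Ikzf2 encode transcription regulators that mark the states of T cells. These 9 genes were chosen by name, among 32285 genes counted, and 20587 genes had at least 1 UMI (unique molecular identifier, a tag for 1 captured RNA molecule) in the cells kept. They were followed in CD8 T cells, CD4 T cells, NK cells and myeloid cells of YUMMER1.7 tumors. YUMMER1.7 is a mouse melanoma line with a high load of mutations, grown under the skin of wild-type male C57BL/6J mice that were 7 to 8 weeks old. From day 7 the mice received isotype antibody, the RMP1-14 clone of anti–PD-1 at 10 mg/kg, the IIID.9 clone of anti-MIF at 20 mg/kg, or both of them (anti–PD-1/anti-MIF), where MIF is the cytokine macrophage migration inhibitory factor. The long treatment cohort had 4 doses over 2 weeks and was harvested on day 21, and the short treatment cohort had 2 doses over 1 week and was harvested on day 14. Sorted cells were recombined at 80% CD45+ immune cells and 20% CD45- cells, which fixes the immune share. The 4 arms of a cohort were marked with hashtag antibodies and pooled into 1 single-cell library. Each library also held cells of a 5th hashtag, named anti-PD1-MIF-DDT, which the labels do not list. How many mice stand behind a hashtag was not given in the sources used here.

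TCF-1, made from Tcf7, and its relative LEF-1 are HMG-box factors that act with β-catenin and Groucho partners and keep naive, memory and stem-like T cells in a state from which they can renew. TOX, another HMG-box factor, is induced by lasting antigen stimulation and maintains exhausted CD8 T cells, while the T-box factors EOMES and T-bet (from Tbx21) drive effector and NK cell programs. ID proteins bind E proteins and keep them off DNA, with ID2 known from effector and NK cells and ID3 from memory and naive cells. FOXP3 is the lineage factor of regulatory T cells, many of which also carry the Ikaros family zinc-finger protein Helios (from Ikzf2).

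The files list 2516 barcodes for the long library, in which 23702910 UMIs of genes were counted. For the short library they list 4987 barcodes and 31799441 UMIs, and 20 barcode sequences occurred in both. After the hashtags were read, low-quality barcodes removed and the cells of the 5th hashtag set aside (322 long, 993 short), 1671 cells remained in the long and 3119 in the short cohort. CD8 T cells were cells with UMIs of Cd3e and Cd8a, CD4 T cells had Cd3e with Cd4, NK cells had Ncr1 without Cd3e, and myeloid cells had Lyz2 without Cd3e and Ncr1. The 3 cells with Cd3e and both Cd8a and Cd4 were left out of the gates. None of these genes is one of the 9 factors. CD8 T cells numbered 204 in the long and 182 in the short cohort, CD4 T cells 27 and 36, NK cells 34 and 107, and myeloid cells 967 and 2186. Values by arm are given in the order isotype, anti–PD-1, anti-MIF, combination. Long arms held 54, 48, 67 and 35 CD8 T cells, and short arms 14, 114, 33 and 21. The CD4 T cells were few, with 1, 6, 15 and 5 cells in long arms and 13, 13, 5 and 5 in short arms. No arm has a replicate, so arms served as replicates of each other, and the cohort, its library and its harvest day cannot be told apart.

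The gates matched their names by markers that did not define them. Cd8b1 was found in 92.5% of CD8 T cells, at 1071 CPM (a gene's UMIs summed over cells and scaled by all gene UMIs of those cells) against 6.03 CPM in CD4 T cells. Cd40lg stood at 90.4 CPM in CD4 T cells and 4.39 CPM in CD8 T cells. The NK cell gene Klrb1c was found in 80.1% of NK cells at 451 CPM, and Csf1r in 82.2% of myeloid cells at 422 CPM. Of 3 γδ T cell receptor genes, Trdv4 was found in 37.6% and Trdc in 17.0% of cells of the NK gate, while Tcrg-C1 had 0 UMIs there and Cd3d was found in 4.96%. The part of γδ T cells in the NK values was not tested. Tumor cell markers were at 0 for 5 of 5 genes in CD8 T cells, and 29 of 386 CD8 T cells held a UMI of Lyz2. Median depth was 4970.5 UMIs per cell in CD8 T, 4372 in CD4 T, 5705 in NK and 7233 in myeloid cells. Since the sequenced tag lies at one end of the RNA, levels are compared for 1 gene between cells and not between genes.

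The promoter of Lef1 is shown because Lef1 had the cohort difference in CD8 T cells that held in every setting testing it, and because LEF-1 and TCF-1 bind the core CTTTG. It is the 250 bases before the RefSeq start, on the plus strand of GRCm38.p6 at chr3:131110047-131110296, with its CTTTG match in capitals.
Lef1: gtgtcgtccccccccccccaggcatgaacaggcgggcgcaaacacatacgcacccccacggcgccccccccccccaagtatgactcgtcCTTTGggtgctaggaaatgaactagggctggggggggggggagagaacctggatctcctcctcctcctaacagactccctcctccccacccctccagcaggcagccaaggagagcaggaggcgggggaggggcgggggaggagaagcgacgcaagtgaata
CTTTG, read on both strands, was in 48.58% of the 32851 RefSeq promoter windows of that length, so a match is common and describes the sequence only. The longer CTTTGA, which contains it, was in 13.83% of windows and not in the one printed.

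Tcf7 (GRCm38 chr11:52252371-52283014, minus strand) and Lef1 (chr3:131110471-131224356, plus strand) had lower averages in CD8 T cells than in CD4 T and NK cells. Tcf7 had a median of 21.9 CPM over 8 CD8 T samples (lowest 5.53, highest 76.0), 80.6 CPM over 7 CD4 T samples (0 to 182) and 75.7 CPM over 7 NK samples (0 to 165). In myeloid cells the median was 2.10 CPM (0 to 3.56). The samples of the 3 lymphocyte gates overlapped widely. A UMI of Tcf7 was found in 8.03% of CD8 T cells, 20.6% of CD4 T cells and 31.9% of NK cells. The share in myeloid cells, which should lack the gene, was 0.571% at greater depth, from 50 UMIs in 18 of 3153 cells. The part of free RNA and of doublets within an arm in these UMIs was not tested. Lef1 had means of 57.9 ± 66.9 CPM in CD8 T (SD, n = 8), 65.0 ± 46.0 in CD4 T (n = 7), 83.7 ± 77.6 in NK (n = 7) and 0.292 ± 0.463 CPM in myeloid cells (n = 8). It was found in 10.4% of CD8 T, 23.8% of CD4 T, 29.8% of NK and 0.159% of myeloid cells.

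Tox (chr4:6686353-6991557, minus strand) was the factor of the T cells. Its median was 382 CPM in CD8 T (177 to 672), 348 CPM in CD4 T (66.1 to 548), 99.6 CPM in NK (43.3 to 248) and 0.308 CPM in myeloid cells (0 to 1.31). The CD8 T and CD4 T ranges overlapped, whereas CD8 T cells were higher than NK cells in 7 of 7 arms. CD8 T cells held 62.2% of all Tox UMIs of the kept cells, and 62.7% of CD8 T cells had at least 1.

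Eomes (chr9:118478212-118486132, plus strand) was the factor of the NK cells. The NK samples ran from 184 to 283 CPM with a median of 249, and the CD8 T samples from 0 to 39.1 CPM with a median of 15.0, so these groups did not overlap. In CD4 T cells 1 UMI was found in 63 cells. Tbx21 (chr11:97098071-97115331, minus strand) was shared by NK and CD8 T cells, with means of 199 ± 59.8 CPM (SD, n = 7) and 145 ± 42.6 CPM (n = 8), and stood at 63.7 ± 76.0 CPM in CD4 T (n = 7) and 2.50 ± 3.28 CPM in myeloid cells (n = 8). A UMI of Tbx21 was found in 61.7% of NK, 50% of CD8 T, 15.9% of CD4 T and 0.793% of myeloid cells.

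Id2 (chr12:25093799-25097140, minus strand) and Id3 (chr4:136143497-136145755, plus strand) differed in where they were found. Id2 had a mean of 749 ± 133 CPM in CD8 T (SD, n = 8), 751 ± 231 in NK (n = 7), 587 ± 370 in CD4 T (n = 7) and 228 ± 64.9 CPM in myeloid cells (n = 8). The 3 lymphocyte gates did not differ beyond their spread. Of 1527 Id3 UMIs 1334 (87.4%) came from myeloid cells, which made up 65.8% of all cells and of which 14.5% were positive. Myeloid cells were also the deepest of the gates, so their part of all UMIs exceeds their part of cells. Scaled by depth, Id3 stood at 52.5 CPM in pooled myeloid cells. It stood at 31.7 CPM in cells with Cd3e but neither Cd8a nor Cd4, and at 31.0 CPM in cells of no gate. The myeloid samples ranged from 14.3 to 112 CPM with a median of 40.7. In CD8 T cells 9 UMIs in 386 cells gave 3.95 CPM, and 5 UMIs in NK cells gave 5.34 CPM. The 8 UMIs in CD4 T cells were all from the long cohort, 6 of them in 1 anti–PD-1 cell and 2 in 1 anti-MIF cell. In all, 3.17% of CD4 T cells were positive. Their 48.4 CPM in the long cohort, against 25.0 CPM in long myeloid cells, thus rests on single cells. Short CD4 T cells had 0 and short myeloid cells 71.0 CPM.

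Foxp3 (chrX:7573644-7595245, plus strand) and Ikzf2 (chr1:69531214-69687245, minus strand) were highest in CD4 T cells. Foxp3 ran from 0 to 577 CPM over 7 CD4 T samples (median 202), and 33.3% of CD4 T cells were positive. CD8 T cells had 4 UMIs, with 0.518% of cells positive, close to 0.476% in myeloid cells. NK cells had 0 UMIs, and after thinning to 2000 UMIs per cell the 0 of 134 cells allow a share of cells with a Foxp3 UMI of up to 2.24%, which does not limit cells that express it below 1 UMI. Ikzf2 had a median of 772 CPM in CD4 T (0 to 1055), 169 in CD8 T (45.9 to 271), 33.2 in NK (0 to 117) and 3.93 CPM in myeloid cells (2.37 to 11.8). The 0 in CD4 T is the long anti–PD-1/anti-MIF sample of 5 cells, and the other 6 CD4 T samples lay above every CD8 T sample.

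**Figure D1:**
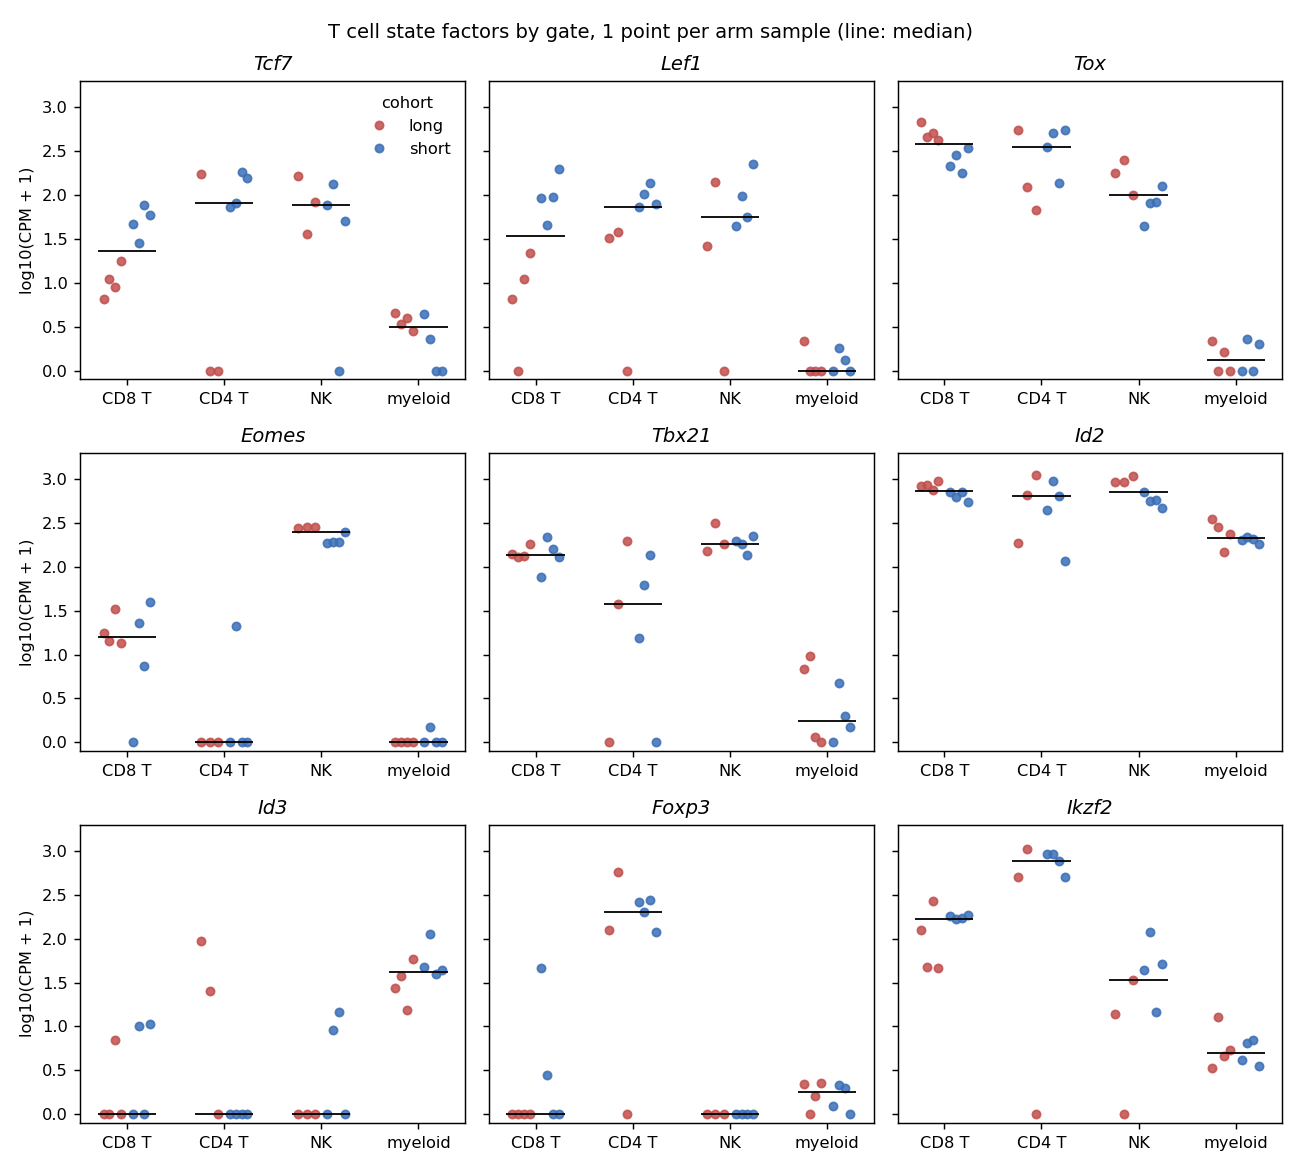
Levels of the 9 factors by gate, as log10(CPM + 1) on the vertical axis. Each point is 1 arm sample of at least 5 cells, coloured by cohort, and the line is the median; Eomes lies highest in NK cells, Tox in CD8 T and CD4 T cells, and Foxp3 and Ikzf2 in CD4 T cells, while the highest median of Id3 is in myeloid cells.

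Tests between gates used edgeR's quasi-likelihood test on the summed UMIs of each arm and gate, with the arm as a block and Benjamini-Hochberg adjustment over 2880 genes, and a gene was called at an adjusted p under 0.05. Of the 9 factors 7 were tested, while Id3 and Foxp3 fell below the filter on low counts. Between CD8 T and CD4 T cells 1 of 7 was called, where 11.8% of all genes tested were. Ikzf2 was lower in CD8 T cells by a log2 fold change of -2.09 (SE 0.35, adjusted p = 0.0001114, lower in 6 of 7 arms). Tbx21 differed by 1.91 (SE 0.66) and missed the threshold (adjusted p = 0.05543, higher in 6 of 7 arms), and it passed under 4 of 19 other settings. Tcf7 (-1.53, adjusted p = 0.2307), Lef1 (-0.39, adjusted p = 0.7881), Tox (0.20, adjusted p = 0.7743), Id2 (0.54, adjusted p = 0.173) and Eomes (2.71, adjusted p = 0.1204) did not pass. Id2 was called in 1 of 19 other settings, with no filter (0.85, edgeR adjusted p = 0.009179). Foxp3 was tested in 2 other settings. With no filter it was lower in CD8 T cells (edgeR adjusted p = 4.173e-31). The other setting left out the long anti–PD-1/anti-MIF sample, whose CD4 T cells had 0 Foxp3 UMIs. There Foxp3 passed the filter through the remaining CD4 T samples, where it is high, which fixed the direction beforehand. No conclusion is drawn from that fit.

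Against NK cells, 3 of 7 factors were called in CD8 T cells beside 15.1% of all genes. Tox was higher by 1.66 (SE 0.33, adjusted p = 0.0004508) and Ikzf2 by 1.47 (SE 0.45, adjusted p = 0.02504), both in 7 of 7 arms. The Ikzf2 call was lost without the long anti-MIF sample (adjusted p = 0.092), the short isotype sample (0.06005) or the short anti-MIF sample (0.08156). Eomes was lower by a log2 fold change of -3.65 (SE 0.35, adjusted p = 1.924e-09) in 7 of 7 arms. Its samples reached the count filter in NK cells only, where Eomes is high, so passing the filter fixed the direction. Eomes was also called in 19 of 19 other settings, among them the one with no filter. Tcf7 at -1.69 (SE 0.66, adjusted p = 0.08711) and Lef1 at -0.71 (adjusted p = 0.4835) did not pass, nor did Tbx21 (-0.40) and Id2 (-0.03). Tcf7 was called in 4 of 15 other settings: with no filter (0.0001216), with no arm block (0.02078), without short anti-MIF (0.007939) and without short anti–PD-1/anti-MIF (0.04485). Between CD4 T and NK cells 4 of 7 were called, beside 20.2% of all genes: Tox at 1.46 (adjusted p = 0.005218), Ikzf2 at 3.56 (adjusted p = 3.906e-07), Tbx21 at -2.31 (adjusted p = 0.01353) and Eomes at -6.36 (adjusted p = 7.563e-08). The same limit of the filter holds for Eomes here, which was called in 19 of 19 other settings, among them no filter. Tcf7 (-0.16, adjusted p = 0.9211), Lef1 (-0.32, adjusted p = 0.8077) and Id2 (-0.57, adjusted p = 0.128) did not pass. In 1 of 19 other settings, without short anti–PD-1, Id2 was called (-0.80, edgeR adjusted p = 0.04071). Against myeloid cells 7 of 7 were higher in CD8 T cells, 6 of 7 in CD4 T cells and 7 of 7 in NK cells. Of all genes 33.4%, 22% and 27.6% were called higher, and 69.8%, 51.6% and 59.3% in either direction. Eomes in CD4 T cells was the factor not called, and Id2 in CD4 T cells (1.04) lost its call with no filter (0.50, adjusted p = 0.1166). The NK differences ran from 1.61 for Id2 to 9.82 for Eomes. The CD8 T differences ran from 1.58 for Id2 to 8.84 for Tox. Apart from Id2, the factors tested passed the filter through lymphocyte samples, which fixed the direction of these counts beforehand. No conclusion is drawn from the counts. Id3, which the filter removed, went the other way with no filter. It was called lower than in myeloid cells in CD8 T (-3.97), CD4 T (-1.68) and NK cells (-4.12).

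Other genes of these programs came from lists of memory and stem-like, inhibitory and activation, cytotoxic and regulatory T genes and of related factors. Between CD8 T and CD4 T cells, 8 of 12 cytotoxic genes tested were higher and 0 lower in CD8 T cells (median log2 fold change 2.53, against 0.06 over all genes), and 3 of 5 regulatory T genes were lower. Prf1 (perforin, 4.85, adjusted p = 1.69e-06) and the chemokine gene Xcl1 (5.53, adjusted p = 0.0002849) were higher in CD8 T cells. Maf, a bZIP factor of helper and regulatory cells, was lower (-4.27, adjusted p = 2.806e-08). Between CD8 T and NK cells, 8 of 13 inhibitory and activation genes were higher and 1 lower (median 1.70, against -0.00 over all genes). Of the memory and stem-like list, 2 of 9 were higher and 4 lower. Pdcd1 (PD-1) was higher in CD8 T cells by 5.19, while Gzma (granzyme A, -7.63) was lower. Between CD4 T and NK cells 5 of 5 regulatory T genes were higher in CD4 T cells (median 2.52) and 8 of 12 cytotoxic genes lower (median -2.74), with Tnfrsf4 (OX40) at 11.90 and Prf1 at -6.23. Against myeloid cells, the genes of largest change were led by Nkg7 (9.59) in CD8 T, Cxcr6 (8.60) in CD4 T and Xcl1 (11.18) in NK cells.

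Tcf7 and Lef1 were lower, and Tox higher, in long CD8 T cells than in short ones. By arm, in the order given above, Tcf7 stood at 5.53, 10.1, 8.03 and 16.7 CPM in the long cohort, which are 2, 3, 4 and 4 UMIs. The short arms had 45.7, 27.1, 76.0 and 58.6 CPM (3, 15, 12 and 6 UMIs). Every long sample lay below every short sample. Lef1 stood at 5.53, 0, 10.0 and 20.9 CPM in the long and at 91.4, 45.2, 95.1 and 195 CPM in the short cohort, again without overlap, and the 20 UMIs of the short anti–PD-1/anti-MIF sample came from 4 cells. Tox stood at 672, 464, 506 and 422 CPM in the long and 213, 289, 177 and 342 CPM in the short cohort, without overlap.

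**Figure D2:**
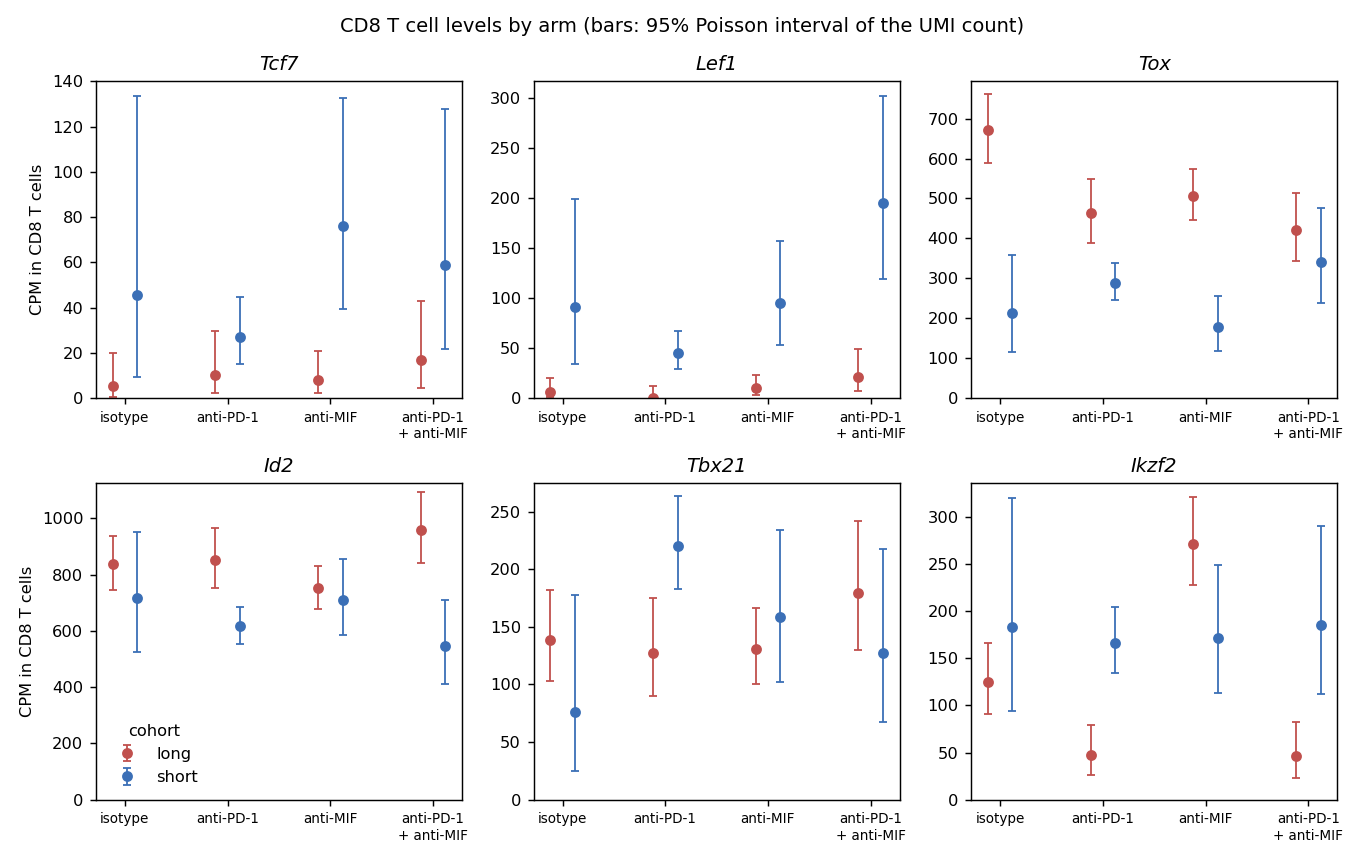
Levels of Tcf7, Lef1, Tox, Id2, Tbx21 and Ikzf2 in CD8 T cells, in CPM on a linear axis, by arm and cohort. Points are single arm samples and bars are exact 95% Poisson intervals, which cover counting error only; long samples lie below short samples for Tcf7 and Lef1 and above them for Tox in each of the 4 arms.

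The additive model of cohort, anti–PD-1 and anti-MIF over the 8 CD8 T samples (edgeR, adjusted over 4928 genes) called 3 of the 6 factors tested between the cohorts, beside 4.81% of all genes (237 genes, 127 higher and 110 lower in the long cohort). Eomes, Id3 and Foxp3 were too low to be tested. Tcf7 was lower in the long cohort by a log2 fold change of -2.38 (SE 0.57, adjusted p = 0.02614) and Lef1 by -3.48 (SE 0.49, adjusted p = 0.001133), both in 4 of 4 arm pairs. Tox was higher by 0.94 (SE 0.22, adjusted p = 0.02358) in 4 of 4 pairs. Id2 at 0.33 (SE 0.15, adjusted p = 0.2226), Ikzf2 at -0.83 (SE 0.35, adjusted p = 0.181) and Tbx21 at -0.22 (adjusted p = 0.6373) were not called. Without long anti-MIF, Ikzf2 was called at -1.35 (adjusted p = 0.006881), and over the 8 left-out samples it ran from -1.43 to -0.43. Lef1 passed in 18 of 18 other settings that tested it. Tcf7 passed in 9 of 17, losing the call when any 1 of 7 samples was left out (adjusted p up to 0.1866, without short anti-MIF), and the 8 samples together hold 49 Tcf7 UMIs. Tox passed in 14 of 19 and lost the call with gates on any Cd3 gene (0.0791), or without long isotype (0.07645), short isotype (0.07733), short anti–PD-1 (0.06848) or short anti-MIF (0.1511).

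In a sum over cells, fewer positive cells and less RNA per cell cannot be told apart, so shares were taken at a fixed depth of 2000 UMIs per cell. Tcf7 was then found in 3 of 190 CD8 T cells (1.58%) in the long and 11 of 164 (6.71%) in the short cohort, and without thinning in 3.92% and 12.6%. Lef1 was found in 3 of 190 and 14 of 164 cells, Tox in 95 of 190 and 51 of 164, and Id2 in 145 of 190 and 100 of 164. The shares leave out 14 long and 18 short cells with fewer UMIs. Over the 4 arm pairs the long minus short difference in the Tcf7 share was -5.24 percentage points on average (SD 6.27), and it was negative in 3 of 4 pairs. The exact two-sided sign-flip test gave p = 0.25 (0.5 after adjustment over 6 tests), and 4 pairs cannot give a p below 0.125.

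**Figure D3:**
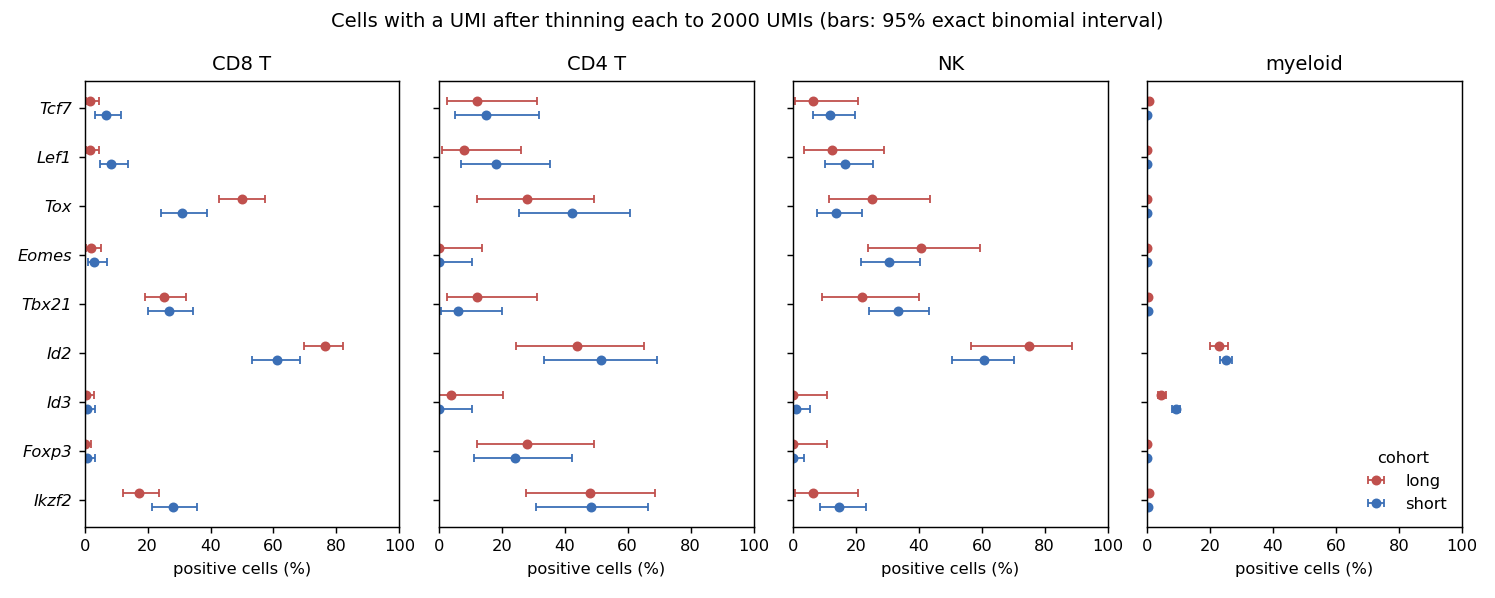
Percentage of cells with at least 1 UMI of each factor after thinning to 2000 UMIs per cell, by gate and cohort. Bars are exact binomial 95% intervals over pooled cells; in CD8 T cells 1.58% of long and 6.71% of short cells were positive for Tcf7.

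Genes that accompany these factors moved between the cohorts in the same CD8 T samples. Of 9 memory and stem-like genes tested (of 15 listed), 3 were lower and 0 higher in the long cohort (median -1.15, against 0.02 over all genes). They were Foxo1 (-1.89, SE 0.33, adjusted p = 0.005514), a forkhead factor that maintains naive and memory cells, the chromatin organizer Satb1 (-1.76, SE 0.22, adjusted p = 0.0005449) and the repressor Bach2 (-1.68, adjusted p = 0.01608). Foxo1 ran from 16.1 to 60.5 CPM over the long and from 114 to 167 CPM over the short samples, and Satb1 from 54.3 to 77.3 and from 203 to 234 CPM. Of 14 related factors tested, 0 were higher and 2 lower, Foxp1 (-1.41, adjusted p = 0.005218), which keeps T cells quiescent, and Runx1 (-1.08, adjusted p = 0.024). Of 16 inhibitory and activation genes 5 were higher and 0 lower (median 0.53), and of 13 cytotoxic genes 4 were higher and 1 lower (median 0.54). Prf1 was higher by 1.51 (adjusted p = 0.006959), from 325 to 729 CPM in the long and 68.4 to 271 CPM in the short samples. Runx1 and the other genes called were looked up after their values were seen, the latter being the inhibitory receptors Tigit (1.31), Cd160 (1.28), Havcr2 (1.12), Lag3 (0.98) and Pdcd1 (0.84), the effector genes Ccl4 (1.20), Ifng (1.10) and Gzmb (0.98), Capg of the regulatory T list (0.74, the 1 of 8 tested that was called) and, in the other direction, Gzma (-3.08). Gzma was lower in 3 of 4 pairs and higher in 1.

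**Figure D4:**
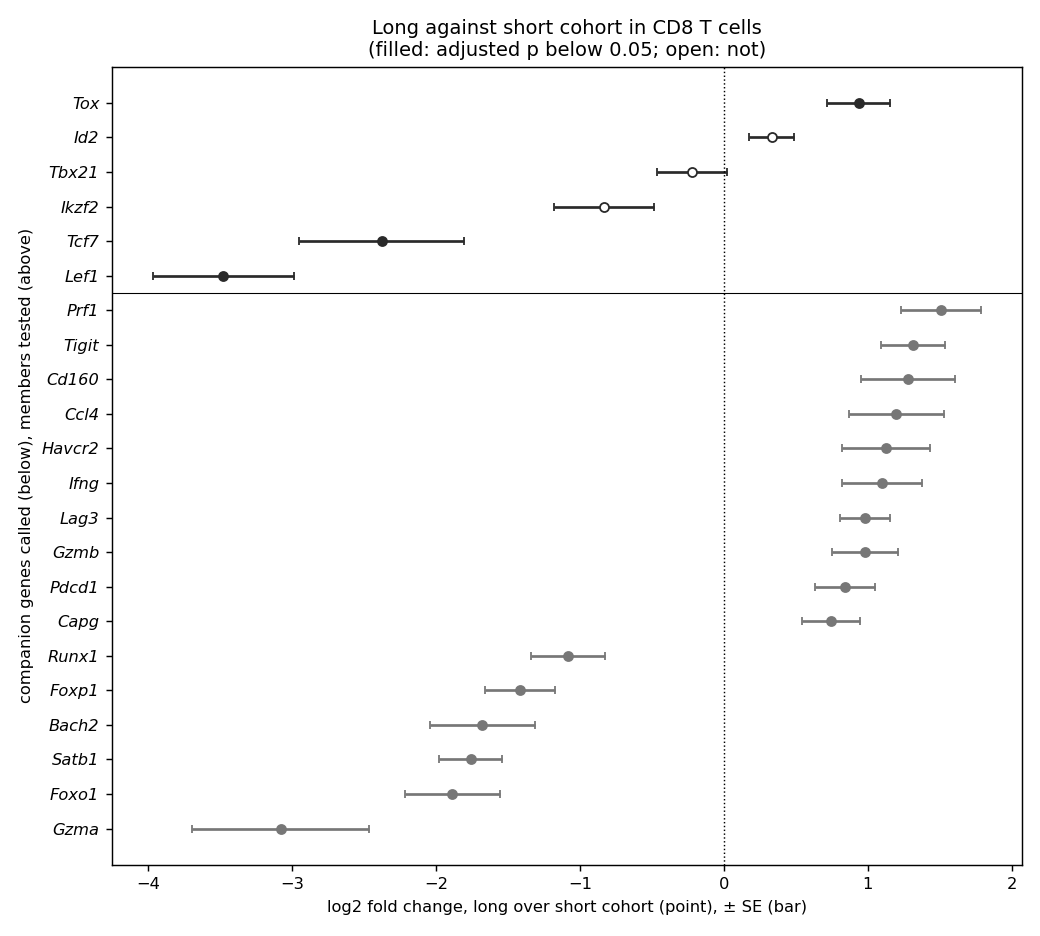
Long against short cohort in CD8 T cells, as log2 fold change with its SE on the horizontal axis, for the 6 factors tested and below them the 16 listed genes called. Filled points have an adjusted p under 0.05; Tcf7 and Lef1 lie at -2.38 and -3.48 and Tox at 0.94.

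Several other measures differed between the cohorts in these cells. CD8 T cells made up 12.2% of long and 5.84% of short cells, and their median depth was 5975 and 4286 UMIs. A UMI of Mki67, Top2a, Birc5 or Stmn1, genes of dividing cells, was found in 78 of 204 long (38.2%) and 53 of 182 short CD8 T cells (29.1%). Without those cells Lef1 stayed lower (-4.14, adjusted p = 0.0009441), Tox stayed higher (1.27, adjusted p = 0.005383), and Tcf7 missed the threshold at -2.16 (adjusted p = 0.1233). At 2000 UMIs per cell Tox was higher by 1.33 (adjusted p = 0.00904) and neither Tcf7 nor Lef1 could be tested. NK cell markers summed to between 840 and 1364 CPM in the long and 502 and 939 CPM in the short samples, with Prf1 the most abundant, Klrb1c at 5.27 CPM over both and 1 of 6 genes at 0. Myeloid markers summed to 510 CPM in long anti-MIF and to between 76.1 and 166 in the other 7 samples. Their most abundant gene, Ctss, stood at 124 CPM in long and 127 in short CD8 T cells, whereas the macrophage gene C1qa stood at 79.5 and 3.41 CPM and Cd14 at 25.1 and 3.41 CPM. Dendritic markers summed to 396 CPM in short isotype and to between 25.3 and 187 in the others, nearly all from Ccr7, with 4 of 6 genes at 0. The part of the NK, myeloid and dendritic transcripts in the cohort difference was not tested.

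Neither antibody changed a factor in CD8 T cells past the threshold. With anti-MIF 0 of 6 factors tested and 0% of 4928 genes were called by edgeR (208 genes at an unadjusted p under 0.05), and with anti–PD-1 also 0 of 6 and 0% (257 genes). Lef1 was higher with anti-MIF in 4 of 4 pairs at a log2 fold change of 1.60 (SE 0.48), but its adjusted p was 0.863. Tcf7 stood higher in 4 of 4 pairs at 0.95 (SE 0.59, adjusted p = 0.9995). Tox (-0.20), Ikzf2 (0.37), Tbx21 (0.03) and Id2 (-0.01) were nearer to 0. With anti–PD-1, Ikzf2 was at -1.001 (SE 0.36, adjusted p = 0.7797), lower in 3 of 4 pairs, and the other 5 lay between -0.05 and 0.30. In the long cohort Ikzf2 stood at 124 CPM with isotype and 271 with anti-MIF, against 47.0 with anti–PD-1 and 45.9 with anti–PD-1/anti-MIF, while the short samples lay between 166 and 186. That difference between the cohorts did not pass (interaction -2.13, SE 0.51, adjusted p = 0.9162), nor did any other interaction of a factor with cohort. Over 4 pairs, the thinned Tcf7 share of CD8 T cells differed by 5.71 ± 6.24 percentage points with anti-MIF (exact sign-flip p = 0.25, adjusted 0.5, higher in 3 of 4) and by 1.43 ± 4.43 with anti–PD-1 (exact p = 0.625, adjusted 0.625). The sign of the latter turned at 1000 UMIs per cell (-2.63) and without long anti-MIF or long anti–PD-1/anti-MIF (-0.00197 in both).

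In CD4 T cells 4 factors could be tested across the arms, Tox, Id2, Foxp3 and Ikzf2, over 7 samples of 5 to 15 cells. Foxp3 stood at 125, 577 and 0 CPM in the 3 long samples other than isotype (8, 47 and 0 UMIs), and at 261, 202, 272 and 117 CPM in the short samples (18, 10, 6 and 3 UMIs). The groups overlapped. The edgeR model gave -1.58 for anti–PD-1 (SE 0.70, adjusted p = 0.9987, lower in 3 of 3 pairs) and -0.20 for anti-MIF. Ikzf2 gave -1.08 for anti–PD-1 (adjusted p = 0.9987) and -0.67 for anti-MIF (adjusted p = 0.948). Tox gave 1.08 for anti–PD-1 (SE 0.56, adjusted p = 0.9987) and -0.95 for anti-MIF (SE 0.54, adjusted p = 0.948), and Id2 gave 0.05 and 0.18. Between cohorts Tox was at -0.68, Ikzf2 at -0.41, Foxp3 at 0.23 and Id2 at 0.003, and none of these was called. Of 1071 genes 0% were called for either antibody (18 and 30 genes at an unadjusted p under 0.05 for anti–PD-1 and anti-MIF) and 0.0934%, 1 gene, between cohorts. In the cohort by anti-MIF interaction Id2 was at 2.91, Tox at -1.55, Foxp3 at 0.60 and Ikzf2 at 0.02. Only these sizes are given, because long anti–PD-1 was the only long sample without anti-MIF. The thinned Foxp3 share of CD4 T cells differed by -29.4 ± 20.8 percentage points with anti–PD-1 over 3 pairs, where the exact sign-flip test cannot go below its p of 0.25.

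In NK and myeloid cells the arms were described without a test. Eomes in NK cells stood at 280, 283 and 282 CPM in the long samples of at least 5 cells and at 184, 190, 192 and 249 CPM in the short samples, so these 3 long values lay above all 4 short ones. The long isotype sample of 4 cells stood at 198 CPM (8 UMIs), among the short values. Tcf7 in NK cells was spread, at 165, 35.4 and 83.0 CPM in the long and 75.7, 133, 0 and 49.8 CPM in the short samples, with 8 to 77 cells behind each. Id3 in myeloid cells stood at 26.1, 36.9, 14.3 and 58.1 CPM in the long and 46.6, 112, 38.2 and 43.3 CPM in the short samples. Id2 there stood at 355, 286, 148 and 234 CPM in the long and 200, 219, 206 and 180 CPM in the short samples. For both genes long anti-MIF was the lowest of the 8 myeloid samples.

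In pooled counts, CD8 T cells with a UMI of Tcf7 carried more Lef1 and less Tox and Id2 than the other CD8 T cells. This is a description of pooled cells, because 1 arm had at least 5 cells on both sides after thinning and the planned test could not be fitted. With cells not thinned a fit was possible, and it called 0 of 781 genes and 0 of 4 factors tested. There Lef1 was at 4.41 (edgeR adjusted p = 0.1055), Tox at -0.45 (0.7684) and Ikzf2 at -2.97 (0.185). Id2 was tested in 3 other settings, from -1.61 to -0.50 (edgeR adjusted p from 0.191 to 0.6647), and was not called. The 31 cells with and 355 cells without Tcf7 had median depths of 4787 and 4973 UMIs. Lef1 stood at 258 CPM in the first and 13.9 in the second, Tox at 216 and 446, Id2 at 258 and 800, Tbx21 at 84.1 and 165, and Ikzf2 at 68.3 and 164. The example genes that follow were picked after their values were seen. Of 15 listed memory and stem-like genes, 12 stood higher and 3 lower in the Tcf7-positive pool, with no test. Examples are Il7r (IL-7 receptor) at 373 against 93.5 CPM, S1pr1 (exit from tissue) at 84.1 against 2.40 and Slamf6 at 84.1 against 5.75 CPM. Of 14 cytotoxic genes 1 stood higher and 13 lower, and of 16 inhibitory and activation genes 1 stood higher and 15 lower. Examples are Gzmb (granzyme B) at 263 against 1392 CPM, Ifng at 42.05 against 418, Havcr2 (TIM-3) at 21.02 against 221 and Entpd1 (CD39) at 21.02 against 169 CPM. Pdcd1 stood at 368 against 507 CPM. Of the listed regulatory T genes with a UMI 2 stood higher and 10 lower, and of the related factors 10 stood higher and 13 lower. The same counts over all genes are not given here, so these lists cannot be set against genes at large.

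The cohorts did not contribute equally to these pools. In the short cohort 23 of 182 CD8 T cells were Tcf7-positive, with Lef1 at 406 against 23.6 CPM. In the long cohort 8 of 204 cells were, with 1 UMI of Lef1 (13.9 against 8.30 CPM). Tox stood at 220 against 277 CPM in the short and 209 against 543 CPM in the long cohort. The homing receptor gene Ccr7 gave 59 UMIs in the 8 long cells (820 CPM) and 10 in the 23 short cells (84.5 CPM). After thinning, 3 of the 11 short Tcf7-positive cells also had Lef1, and 1 of 11 had Tox against 32.7% of the Tcf7-negative cells. Of the 3 long Tcf7-positive cells 0 had Lef1, against 1.60% of the Tcf7-negative cells, and 1 had Tox, against 50.3%. Between cohorts the counts of the inhibitory and activation list differed, while those of the memory and stem-like and the cytotoxic lists did not. Of the memory and stem-like genes, 10 stood higher and 5 lower in each cohort. Of the inhibitory and activation genes 5 stood higher and 11 lower in long, and 0 higher and 16 lower in short Tcf7-positive cells, and of the cytotoxic genes 1 higher and 13 lower in both. Pdcd1 turned direction, at 876 against 563 CPM in the long and 59.2 against 409.9 CPM in the short cohort.

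CD4 T cells with Foxp3 held more Ikzf2 than the others, again as a description of pooled cells, since the planned test could not be fitted with 1 arm of at least 5 cells on both sides. A fit on sums of 1 or more cells tested 0 factors. Of the 10 long Foxp3-positive cells 8 came from the anti-MIF sample. All 21 Foxp3-positive cells held Ikzf2 (10 of 10 in the long and 11 of 11 in the short cohort), against 23.8% of 42 Foxp3-negative cells, and its level was 1230 against 279 CPM. Their median depths were 5071 and 3596 UMIs, and at 2000 UMIs per cell 6 of 7 long and 8 of 8 short Foxp3-positive cells had Ikzf2, against 33.3% and 32% of the others. Tcf7 was lower at 40.2 against 133 CPM, and after thinning 0 cells had both Foxp3 and Tcf7. Tox stood at 356 and 355 CPM, and Lef1 at 57.5 and 63.4. After thinning, Tox was found in 1 of 7 long and 2 of 8 short Foxp3-positive cells, out of 7 Tox-positive cells among 25 long and 14 among 33 short CD4 T cells. Lef1 was then found in 2 of 7 and 2 of 8, out of 2 and 6 Lef1-positive cells. Of 13 listed regulatory T genes 10 stood higher and 3 lower in the Foxp3-positive pool. Among them, again picked after their values were seen, Il2ra (CD25) stood at 787 against 108 CPM, Areg (amphiregulin) at 621 against 25.3 and Ctla4 at 1477 against 678 CPM. Klrd1, an NK receptor gene, was at 0 in Foxp3-positive cells and at 361 CPM in the others.

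**Figure D5:**
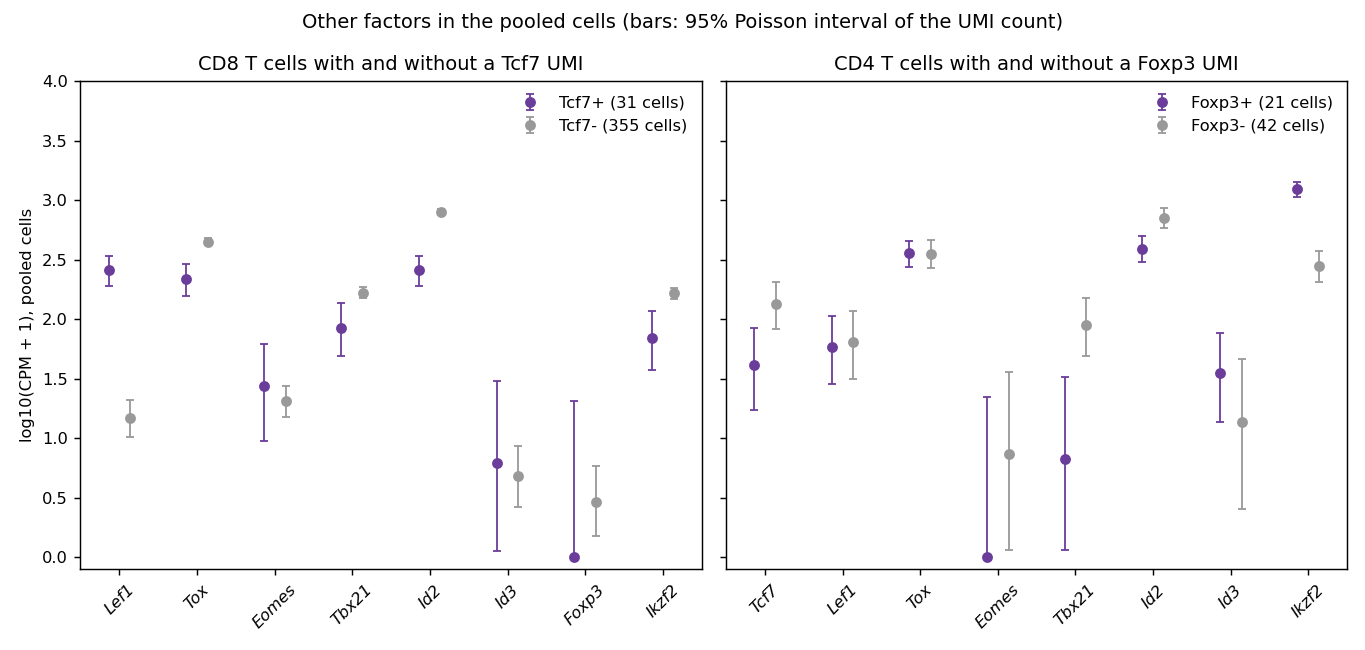
Levels of the factors in pooled CD8 T cells with and without Tcf7 and in pooled CD4 T cells with and without Foxp3, as log10(CPM + 1). Bars are exact 95% Poisson intervals for counting error only; Lef1 stood at 258 against 13.9 CPM in the first split and Ikzf2 at 1230 against 279 CPM in the second.

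The split by Tox left most factors too low to test. The test over 6 arms at 2000 UMIs per cell called 7 of 632 genes (1.11%), and Id2, the 1 factor tested, was not among them (0.07, adjusted p = 0.8682). Leaving out any 1 of 5 samples (long isotype, long anti–PD-1, long anti-MIF, long anti–PD-1/anti-MIF or short anti–PD-1) left 0 genes called, and another draw of UMIs called 25. Ikzf2 was found in 21.1% of Tox-positive and 13.7% of Tox-negative long cells, and in 37.3% and 23.9% of short cells, and its level was higher in 3 and lower in 3 of 6 arms. Ikzf2 was tested in 4 other settings and called in 1 of them, with cells not thinned (edgeR adjusted p = 0.01953, and up to 0.5488 with no filter). These 7 genes, Crip1, Foxn3, mt-Co3, mt-Nd4l, Rabgap1l, St6galnac3 and Zc3h7a, were chosen after their values were seen, and Crip1 was the one that was lower in Tox-positive cells.

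The genes most like each factor over the 30 sums of arm and gate were ranked by Pearson's r of log2(CPM + 1), as a description. These sums share libraries and depth within a cohort and mostly differ by gate. Tox was nearest to Trbc2 (r = 0.97), Lck (0.97) and Cd247 (0.96), genes of the T cell receptor and its signalling. Eomes was nearest to Adamts14 (0.90), Xcl1 (0.89) and Prf1 (0.88), and Tbx21 to Il12rb2 (0.92), Klrd1 (0.92) and Ctsw (0.90). Id2 was nearest to Klrd1 (0.89), H2-Q6 (0.89) and Cd96 (0.88). Id3 was nearest to Ifngr2 (0.86), Atp13a2 (0.86) and Cybb (0.84), the last a gene of phagocytes. Ikzf2 was nearest to Ptpn13 (0.86), A430093F15Rik (0.85) and Zc3hav1 (0.84). Tcf7 had no close match, with Gm2682 (0.76) and the ribosomal protein genes Rps16 (0.75) and Rplp1 (0.73) nearest. Lef1 and Foxp3, with 182 and 114 UMIs in the gates, were too low to rank.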

How the data were processed

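The authors deposited UMI counts per gene and per hashtag for each barcode, without normalization, from Chromium 5′ libraries. Per the labels and the submitters' processing notes, reads were aligned to mm10 (GRCm38) and Cell Ranger 7.1.0, Seurat 5.1.0, R 4.3.2 and DESeq2 were used. Positions are from GENCODE M21, promoters from RefSeq.

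Barcodes were assigned by HTODemux (Seurat 5.3.0, R 4.3.3, positive quantile 0.99). Hashtag doublets (425 long, 626 short) and negatives (24 and 176) were removed, while doublets within an arm carry 1 hashtag and remain. Cells with 200 to 5000 genes and at most 5% mitochondrial UMIs were kept. The 5th hashtag, anti-PD1-MIF-DDT, is absent from the labels. Its cells were left out of the cell counts, UMI shares and tests, except in 1 alternative that kept them. Free RNA was not subtracted.

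UMIs were summed per arm and gate over at least 5 cells, which dropped the long isotype CD4 T (1 cell) and NK (4 cells) sums, leaving 30. Tests used edgeR 4.0.16 (glmQLFTest, filterByExpr, TMM, Benjamini-Hochberg over all genes), with 4 residual degrees of freedom in the arm model. The SE of a log2 fold change is its size divided by the square root of the F statistic. DESeq2 1.42.0 was an alternative. Simulated data with known changes were used to test the edgeR models. For anti-MIF in CD8 T cells, 37% of changes of 1 log2 unit and 91% of changes of 2 were called. In CD4 T cells these were 7% and 52%, so a factor not called can still have changed. For shares, each cell was thinned to 2000 UMIs. Intervals (Poisson for CPM, Clopper-Pearson for shares) and limits from a count of 0 (3 counts) cover counting error only. The labels do not give the number of animals behind an arm, so p-values measure the spread between these arm samples.

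The naming rule took all 9 factors, some of which the text gives only as counts, and in each comparison up to 5 listed genes of largest change among those called with the same sign in every arm. The factors and lists were chosen with earlier results of these data known. A gene that the rule would name is not reported here.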

Additional observations from a re-analysis of the deposited data

Results flagged for a closer look

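In 7 of 50 groups of 4 arm samples tested (1 factor in 1 gate and cohort), 1 sample lay far from the rest. The rule is set to flag about 1 in 20 by chance. It flags any single value above 0 when the rest are at 0, so that rate does not hold for such groups. In myeloid cells of the short anti–PD-1 sample, Id3 stood at 112 CPM (687 UMIs in 915 cells) against 38.2 to 46.6 CPM in the other short samples. In NK cells of short anti–PD-1/anti-MIF, Eomes stood at 249 CPM, from 10 UMIs in 8 cells, against 184 to 192. In CD8 T cells of short isotype, Foxp3 stood at 45.7 CPM, from 3 UMIs in 14 cells, against 0 to 1.81. The other 4 were single samples above 0 where the rest of the cohort was at 0: Lef1 in long isotype myeloid cells (1.19 CPM, 1 UMI), Eomes in short anti–PD-1 CD4 T cells (20.2 CPM, 1 UMI) and in short anti–PD-1 myeloid cells (0.490 CPM, 3 UMIs), and Id3 in long anti-MIF CD8 T cells (6.03 CPM, 3 UMIs).

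Cells of the 5th hashtag, which no comparison in the text above used beyond 1 alternative setting, exceeded the upper 95% bound of their cohort's isotype sample in 3 of 45 values, all in myeloid cells. Id3 stood at 51.8 CPM in the long cohort (isotype 26.1, upper bound 39.5) and at 63.6 CPM in the short cohort (46.6, upper bound 53.7). Id2 stood at 239 CPM in the short cohort (199.97, upper bound 214). The bound covers counting error only, and arms with known labels passed it too, with Id3 at 58.1 CPM in long anti–PD-1/anti-MIF and 112 CPM in short anti–PD-1, and Id2 at 219 CPM in short anti–PD-1, so passing it is not particular to the 5th hashtag. These differences were not tested.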

How the results depend on the processing

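Of 358 repeats of the counts of factors called and of the shares, 342 kept their count within 1.5 times or, for a share, the sign of its difference. Between CD8 T and CD4 T cells 1 factor was called, and 2 with Lyz2 limits in the gates, with the 5th hashtag kept or with no arm block, 4 with no filter, and 1 to 2 leaving out 1 sample. Between cohorts in CD8 T cells 3 were called, 1 at 2000 UMIs per cell and 1 to 3 leaving out 1 sample. The Tox split called 0, and 1 with cells not thinned (Ikzf2, adjusted p = 0.01953). The Foxp3 share with anti-MIF, 9.44 points, turned to -0.952 with any Cd3 gene in the gates, -11.6 not thinned and -1.48 as a mean over draws. The Tcf7 share with anti–PD-1 (1.43 points) turned to -2.63 at 1000 UMIs and ran from -0.00197 to 2.84 leaving out 1 sample. Eomes in CD4 T against myeloid cells turned to -0.00495 without short anti–PD-1, which held its only UMI (-0.00495 to 3.73 leaving out 1 sample), and DESeq2 called it at 5.25 (adjusted p = 3.842e-06). The causes were not tested.

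With no filter the genes called between gates rose from 341, 435, 2011, 581, 1485 and 1709 to 649, 846, 6182, 911, 3875 and 4307, and those for anti-MIF and anti–PD-1 in CD8 T cells from 0 to 44 and 45. Leaving out 1 sample gave up to 4 genes for anti-MIF (without long anti-MIF) and up to 4 for anti–PD-1 (without long anti–PD-1/anti-MIF). Between cohorts in CD8 T cells 237 genes were called, 68 without long anti–PD-1, 296 with any Cd3 gene in the gates, 133 by DESeq2, 81 at 2000 UMIs per cell and 154 without dividing cells. Without short anti–PD-1/anti-MIF the CD4 T counts rose from 0, 0 and 1 to 13, 8 and 12. The Tox split called 0 to 42 genes. The DESeq2 adjusted p of Tcf7 between cohorts was not given. The draws of 2000 UMIs and the settings without dividing cells were added after the data were seen.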

Other observations

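Cells with Cd3e but neither Cd8a nor Cd4 were left out of the T cell gates. These 139 cells carried Ikzf2 at 691 CPM, Foxp3 at 115, Tox at 242, Lef1 at 120 and Tcf7 at 113 CPM, and held 31.7% of all Foxp3 UMIs. A further 905 cells entered no gate and held 40.0% of Tcf7 UMIs at 39.5 CPM. In CD8 T cells of the 5th hashtag, Tcf7 stood at 0 CPM in the long and 47.7 CPM in the short cohort, Lef1 at 0 and 23.8 CPM, and Tox at 388 and 298 CPM.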
